A study of Raphanus sativus with 12 samples.

Results

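The iron and metal homeostasis genes of radish (Raphanus sativus) leaf blades were followed between a reproductive and a vegetative age. The 79 genes were chosen from the 30161 genes of the deposited expression table by words in their descriptions (iron-response bHLH factors, ferric reduction oxidases, ferritins, nicotianamine synthases and transporters, Fe(2+), zinc, copper and Nramp transporters, vacuolar iron transporters, metal tolerance proteins and metallothioneins). The leaves were blades of the diploid radish material XHT, untreated, taken at 120 days after sowing (reproductive growth) and at 30 days (vegetative growth) from plants that shared the same day and night temperatures and day length. Each age had 3 input libraries (RNA before immunoprecipitation) and 3 libraries immunoprecipitated for N6-methyladenosine (m6A, a methylated base in messenger RNA). Leaves of 3 plants were pooled for each library, and the 3 libraries of an age and type are independent biological replicates, per the labels. The study asked how m6A takes part in bolting and flowering.

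Iron, zinc, copper and manganese are cofactors of enzymes and of the electron carriers of chloroplasts and mitochondria, and are toxic when free. As background known mainly from Arabidopsis, roots reduce ferric iron at their surface with a ferric reduction oxidase (FRO) and take up the ferrous form through transporters of the ZIP family, a step switched on by bHLH factors when iron is short. Inside the plant, metals travel bound to the chelator nicotianamine through YSL transporters, and leaf cells store iron in ferritin in the plastid or in the vacuole, while metallothioneins and metal tolerance proteins bind or sequester copper, zinc and manganese.

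Expression was deposited as FPKM, a level scaled by transcript length and by library size, so levels may be compared between genes. Genes reaching 1 FPKM in 3 or more input libraries of the 6 were tested, 21435 in all. Differences were tested with limma on log2(FPKM + 1), and a gene was called when its p, adjusted over all 21435 genes by Benjamini-Hochberg, was under 0.05. All log2 folds of expression put 120 days over 30 days and are on that log2(FPKM + 1) scale, where the change of a low gene is understated. The median gene had a log2 fold of −0.45 with FPKM as deposited, and centring each library on its median removed this shift. Across genes, Pearson's r between pairs of 120-day libraries was 0.971 to 0.985, and 30-day replicate 3 stood apart from 30-day replicates 1 and 2, with r of 0.895 and 0.835. Chlorophyll a-b binding protein genes, markers of leaf, summed to 23900 to 34100 FPKM at 120 days. At 30 days they summed to 3560, 4530 and 803 FPKM in replicates 1 to 3, so replicate 3 stood apart here too. Small chain genes of RuBisCO summed to 47200 to 61700 FPKM at 120 days and 11500 to 12300 FPKM at 30 days. Of the markers that leaves should lack, no description matched Casparian strip or root hair genes, the 3 peroxidase 3 genes summed to 41.7 to 49.6 FPKM at 120 days and 38.6 to 74.0 FPKM at 30 days, and the 3 genes matched as PISTILLATA or APETALA 3 summed to at most 0.76 FPKM at 120 days and at most 3.24 FPKM at 30 days. The 19 nodulin genes summed to 98.7 to 132 FPKM at 120 days and 74.4 to 208 FPKM at 30 days, the 17 pollen genes to 281 to 308 FPKM at 120 days and 276 to 428 FPKM at 30 days, and the 1 tapetum gene had 14.3 to 27.0 FPKM at 120 days and 16.7 to 31.0 FPKM at 30 days. The part of these markers in the results was not tested, and in whole leaves a lower level cannot be told apart as fewer cells of a type or less RNA per cell.

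With FPKM as deposited, the leaves held at 120 days more transcript of the iron-deficiency regulator bHLH101, of a ferric reductase 4 copy, of a copper transporter 1-like copy and of metal tolerance protein 9. They held less of most metal-nicotianamine transporters, of both expressed ferritins and of both expressed Fe(2+) transport protein 3 copies. Of 8 tested zinc transporters 3 were lower (37.5%), near the 37.6% of all tested genes. After median centring the 4 rises stayed called, and neither ferritin did. Lower calls then remained for 1 of 9 tested metal-nicotianamine transporters, 1 of 2 Fe(2+) transport protein 3 copies and 2 of the 8 zinc transporters. Over all tested genes 10.2% were then called lower. Of the 79 genes, 55 were tested and 24 lay below the filter. Of the 55, 4 were called higher at 120 days, against a background of 8.40% of all tested genes called higher, and 30 were called lower, against a background of 37.6% called lower. The 30 make up 54.5% of the tested metal genes. The median log2 fold of the 55 tested metal genes was −0.65, against −0.45 over all genes tested. By at least 2-fold, 3 genes were higher (5.87% of all tested genes) and 15 lower (14.5% of all tested genes). All 120-day libraries lay above all 30-day libraries in 6 of the 55 (11.6% of all tested genes) and below in 32 (49.1% of all tested genes), and they overlapped in 17 (39.3% of all tested genes). Only 3 of the 55 passed the filter through one age alone, bHLH101 through 120 days and Fe(2+) transport protein 3 (Rsa10022351) and vacuolar iron transporter homolog 1 (Rsa10029291) through 30 days.

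The count of lower genes moved with the scaling of the libraries and with single libraries. After median centring 7 of the 55 were higher (background 13.8%) and 9 lower (background 10.2%), so the split between higher and lower calls moved with the scaling. All 4 higher calls were kept after centring. The 9 lower calls were FRO 2-like, Fe(2+) transport protein 3 (Rsa10022351), zinc transporter 1, zinc transporter 5 isoform X2 (Rsa10017430), Nramp1-like, Nramp2, YSL1 and both vacuolar iron transporter homologs, and the other 21 lower calls were lost. Without 30-day replicate 3, 5 were higher (background 10.2%) and 34 lower (background 42.8%). The lower calls numbered 14, 10 and 9 without 120-day replicates 1, 2 and 3, and 19 without 30-day replicate 1. The shares of all tested genes called in those settings are not given here, so these counts are not read as particular to the metal genes. In the authors' deposited table, 4 of the 79 were significantly higher (background 6.45%) and 16 significantly lower (background 11.5%), at q-values up to 0.13, and 4 and 13 of these had the same call here. The lower genes without the same call were nicotianamine synthase 3, which did not pass here, and metallothionein 4B and YSL1-like, which lay below the filter. The log2 folds of all 55 tested genes are shown with their errors in the plot by family.

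**Figure D1:**
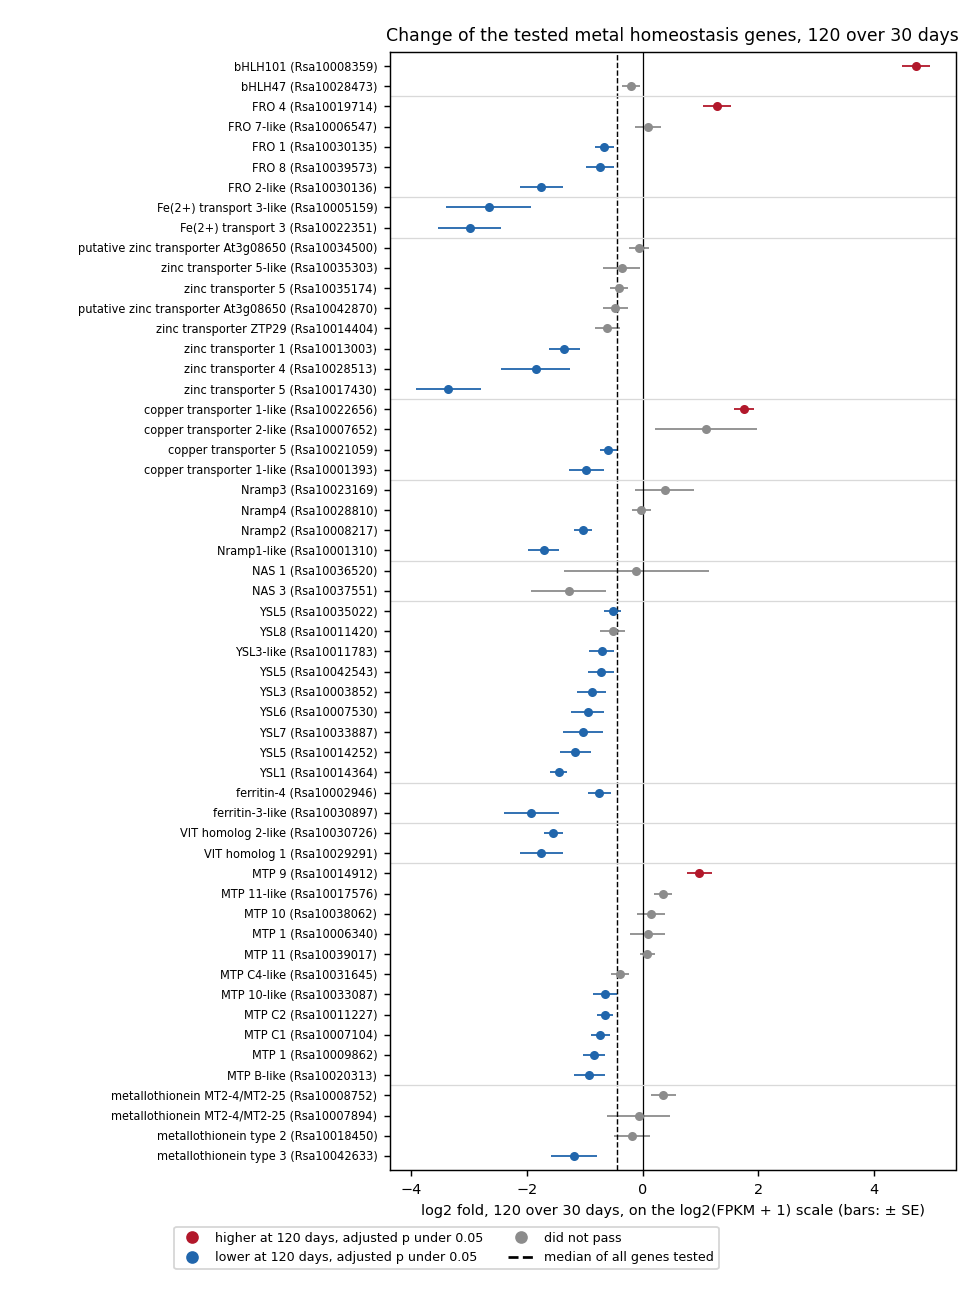
The log2 fold of 120 over 30 days (x axis, log2(FPKM + 1) scale) for each of the 55 tested metal homeostasis genes, grouped by family, with bars of 1 SE from limma (n = 3 libraries per age). Red marks the 4 genes called higher, blue the 30 called lower and grey those that did not pass, and the dashed line is the median of all genes tested at −0.45; bHLH101 stands at 4.72 and zinc transporter 5 isoform X2 (Rsa10017430) at −3.36.

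Of the 2 regulators tested, bHLH101 was called higher and bHLH47 did not pass. It belongs to the Ib subgroup of bHLH factors, which in Arabidopsis are induced by iron shortage and pair with the factor FIT to activate iron uptake genes. Its gene, Rsa10008359 (R03, 654648 to 656008, coordinates as the files give them, genome build not given in the sources), had 22.23, 27.26 and 40.88 FPKM at 120 days against 0.26, 0.14 and 0.04 FPKM at 30 days. Every 120-day library lay above every 30-day library, and its mean FPKM stood at percentile 83.3 of the tested genes at 120 days and at percentile 0.294 at 30 days. The gene passed the filter through its 120-day libraries alone, so its low 30-day percentile among tested genes is no support for the call. The log2 fold was 4.72 ± 0.24 (SE, limma adjusted p = 0.000583), and with an offset of 0.1 in place of 1, which is less damped at low values, it was 6.99. A bHLH100 gene (Rsa10006709), of the same subgroup, was listed at 0 in every library except 30-day replicate 2, at 0.19 FPKM.

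The factor bHLH47, named POPEYE in Arabidopsis and a repressor of iron-response genes there, did not pass. Rsa10028473 (R05, 15674670 to 15675714) had 17.05, 20.44 and 16.4 FPKM at 120 days against 17.68, 23.37 and 21.23 FPKM at 30 days, and the ages overlapped. Its log2 fold was −0.20 ± 0.16 (SE, limma adjusted p = 0.346), and 0.24 after median centring.

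The ferric reductases split. FRO 4, which in Arabidopsis reduces copper at the root surface, rose. Rsa10019714 (R01, 39812779 to 39813731) had 13.92, 13.63 and 13.88 FPKM at 120 days against 7.03, 3.35 and 5.48 FPKM at 30 days, with no overlap between the ages (log2 fold 1.28 ± 0.24 SE, limma adjusted p = 0.00836). A second FRO 4-like copy 21614 bases away (Rsa10019712) was at 0 in all libraries but 120-day replicate 3, at 0.02 FPKM, so the change was seen in a single copy of the pair. The model of Rsa10019714 spans fewer bases than that of any other FRO gene matched here, and whether it is complete was not tested.

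FRO 2-like and its neighbour FRO 1 lie on R05 with 2462 bases and no other gene between them, and both fell. FRO 2 is the main iron reductase of Arabidopsis roots. Rsa10030136 (FRO 2-like, R05, 19334803 to 19340281) had 1.15, 1.05 and 1.73 FPKM at 120 days against 6.9, 3.6 and 11.68 FPKM at 30 days, without overlap (log2 fold −1.75 ± 0.37 SE, limma adjusted p = 0.0124). Rsa10030135 (probable FRO 1, R05, 19342744 to 19345966) stood far above it, with 34.39, 43.07 and 42.14 FPKM at 120 days against 52.86, 69.09 and 68.76 FPKM at 30 days. Its fall was shallower and close to the shift of all genes, with a log2 fold of −0.66 ± 0.17 (SE, limma adjusted p = 0.0239) and −0.22 after median centring. The mitochondrial FRO 8 (Rsa10039573) had 19.28, 17.91 and 25.03 FPKM at 120 days against 47.13, 33.37 and 26.51 FPKM at 30 days (log2 fold −0.73 ± 0.24 SE, limma adjusted p = 0.0488). The chloroplast reductase FRO 7, which supplies iron to chloroplasts in Arabidopsis, was the most abundant of the family. Rsa10006547 (R09, 17575064 to 17578198) had 314.25, 269.64 and 313.5 FPKM at 120 days against 259.39, 235.81 and 357.38 FPKM at 30 days, with overlap (log2 fold 0.09 ± 0.22 SE, limma adjusted p = 0.741). Of the falls, that of FRO 2-like was lost without 120-day replicate 2 (limma adjusted p = 0.0511, and 0.00565 to 0.142 over the alternatives). That of FRO 1 was lost without 120-day replicate 1, 2 or 3 (0.0807, 0.0651 and 0.0691, and 0.0222 to 0.811 over the alternatives). That of FRO 8 was lost on leaving out any 1 of the other libraries than 30-day replicate 3 (0.0716 to 0.151, and 0.0146 to 0.766 over the alternatives).

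**Figure D2:**
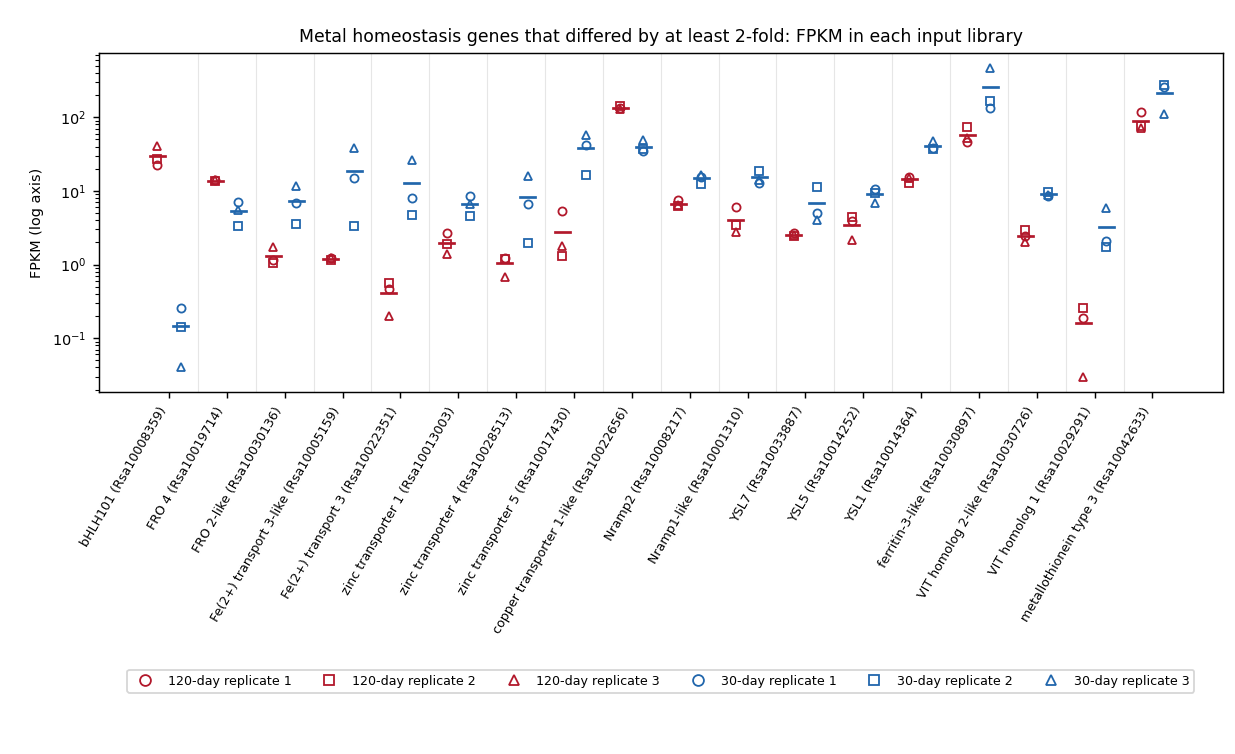
FPKM (log axis) in each of the 6 input libraries for the 18 metal homeostasis genes called with a fold of at least 2, with 120-day libraries in red on the left and 30-day libraries in blue on the right of each gene; symbols mark replicates 1 to 3 and the short lines the means. The ages are apart in every gene shown except metallothionein type 3, and the 30-day values of Fe(2+) transport protein 3-like range from 3.33 to 37.95 FPKM while its 120-day values lie between 1.14 and 1.22 FPKM.

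Among the uptake transporters, Fe(2+) transport protein 3 (IRT3), a ZIP family carrier that moves zinc and iron in Arabidopsis, fell in both expressed copies. Of all tested genes 37.6% were called lower, and 49.1% had every 120-day library below every 30-day library. Rsa10022351 (R09, 1263805 to 1265829) had 0.47, 0.56 and 0.2 FPKM at 120 days against 7.95, 4.71 and 26.18 FPKM at 30 days (log2 fold −2.99 ± 0.55 SE, limma adjusted p = 0.0083). Rsa10005159 (R01, 43210501 to 43211807) had 1.22, 1.14 and 1.21 FPKM at 120 days against 14.85, 3.33 and 37.95 FPKM at 30 days (log2 fold −2.66 ± 0.74 SE, limma adjusted p = 0.0275). In both copies the ages did not overlap, and the 30-day libraries stood in the same order, replicate 3 highest and replicate 2 lowest. This order among the 30-day libraries was held by 16 of the 55 tested metal genes (29.1%), close to its share among all tested genes (29.6%). IRT1 (Rsa10025489), the root iron transporter of Arabidopsis, was at 0 in all but 30-day replicate 1, at 0.33 FPKM. The call of Rsa10005159 was lost without 120-day replicate 1, 2 or 3 or 30-day replicate 1 (limma adjusted p = 0.074, 0.0814, 0.082 and 0.081, and 0.00497 to 0.173 over the alternatives), while that of Rsa10022351 was kept without any 1 library. Rsa10022351 passed the filter through its 30-day libraries alone, so its low 120-day level is no support for the call.

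Of 12 zinc transporter genes, relatives that move zinc across membranes, 8 were tested, 3 fell and 0 rose. The 3 are 37.5% of the 8, close to the 37.6% of all tested genes called lower. The deepest fall was in zinc transporter 5 isoform X2, Rsa10017430 (R06, 23243159 to 23245130), with 5.3, 1.3 and 1.77 FPKM at 120 days against 41.78, 16.31 and 58.16 FPKM at 30 days (log2 fold −3.36 ± 0.56 SE, limma adjusted p = 0.0065). Zinc transporter 1 (Rsa10013003) had 2.68, 1.89 and 1.39 FPKM at 120 days against 8.63, 4.62 and 6.73 FPKM at 30 days (log2 fold −1.35 ± 0.26 SE, limma adjusted p = 0.00952). Zinc transporter 4 (Rsa10028513), with a predicted place in the chloroplast, had 1.24, 1.2 and 0.67 FPKM at 120 days against 6.64, 1.98 and 15.77 FPKM at 30 days (log2 fold −1.85 ± 0.59 SE, limma adjusted p = 0.0436). None of the 3 overlapped between the ages. Of the 8 tested, 5 had every 120-day library below every 30-day library (62.5%), against 49.1% of all tested genes. The copies described as zinc transporter 5 did not move alike: besides the deep fall of Rsa10017430, Rsa10035174 had a mean of 8.24 ± 0.626 FPKM at 120 days against 11.4 ± 1.64 FPKM at 30 days (SD, n = 3 each), which did not pass (log2 fold −0.41, limma adjusted p = 0.0662), and Rsa10035303 a log2 fold of −0.36 (adjusted p = 0.377). The difference between copies was not tested. The call of zinc transporter 4 was lost without 120-day replicate 1, 2 or 3 or 30-day replicate 1 (limma adjusted p = 0.0946, 0.103, 0.128 and 0.11, and 0.00725 to 0.277 over the alternatives). Without 30-day replicate 3, 7 of the 8 zinc transporters fell (87.5%, against 42.8% of all tested genes). After median centring 2 of the 8 were called lower (25.0%, against 10.2% of all tested genes).

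Copper transporters went both ways. A copper transporter 1-like gene, of the family that takes copper into cells, rose: Rsa10022656 (R09, 28548851 to 28549339) had 134.46, 141.66 and 129.15 FPKM at 120 days against 34.45, 36.47 and 48.44 FPKM at 30 days. The libraries of each age lay close together and far from those of the other (log2 fold 1.75 ± 0.17 SE, limma adjusted p = 0.00228). Another copper transporter 1-like gene, Rsa10001393 on a scaffold, fell, with 3.58, 4.5 and 4.29 FPKM at 120 days against 12.19, 11.49 and 5.1 FPKM at 30 days (log2 fold −0.97, limma adjusted p = 0.0444, and −0.53 after median centring, adjusted p = 0.258). Leaving out any 1 of the libraries other than 30-day replicate 3 ended that call (0.0976 to 0.127, within 0.00219 to 0.258 over the alternatives). Copper transporter 5 (Rsa10021059), which in Arabidopsis returns copper from internal stores, was high at both ages, with 92.24, 104.01 and 94.94 FPKM at 120 days against 150.92, 144.09 and 144.77 FPKM at 30 days (log2 fold −0.59 ± 0.14 SE, limma adjusted p = 0.0164). That fall was near the shift of all genes and was −0.15 after median centring. Its call was lost without 120-day replicate 1, 2 or 3 or 30-day replicate 1 (0.0642, 0.0578, 0.073 and 0.0534, and 0.0108 to 0.761 over the alternatives). Copper transporter 2-like (Rsa10007652) had 21.87, 16.21 and 15.66 FPKM at 120 days against 7.94, 1.35 and 31.21 FPKM at 30 days, so its ages overlapped through 30-day replicate 3. With that library its log2 fold was 1.09 ± 0.88 (SE, limma adjusted p = 0.332), and without it 2.03 (adjusted p = 0.0224).

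Of the Nramp carriers of manganese and iron, 2 of the 4 tested fell and 2 did not pass (37.6% of all tested genes were called lower). Nramp1-like (Rsa10001310, R02, 40445864 to 40448530), whose Arabidopsis relative takes up manganese, had 6.02, 3.47 and 2.76 FPKM at 120 days against 12.8, 18.62 and 14.21 FPKM at 30 days (log2 fold −1.71 ± 0.27 SE, limma adjusted p = 0.00575). Nramp2 (Rsa10008217, R08, 5130541 to 5132923), a manganese carrier of the Golgi network in Arabidopsis, had 7.5, 6.17 and 6.34 FPKM at 120 days against 15.59, 12.42 and 16.24 FPKM at 30 days (log2 fold −1.03 ± 0.16 SE, limma adjusted p = 0.00538). Neither overlapped between the ages. Nramp4 and Nramp3, which in Arabidopsis release iron from the vacuole, had log2 folds of −0.02 (Rsa10028810, adjusted p = 0.924) and 0.38 (Rsa10023169, adjusted p = 0.568), and Nramp3 had 0.15 FPKM in 30-day replicate 3 against 2.39 and 3.89 FPKM in the other 30-day libraries. The log2 fold of Nramp3 turned to −0.23 when 30-day replicate 3 was left out (limma adjusted p = 0.371, within 0.188 to 0.693 over the alternatives).

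Of the metal-nicotianamine transporters (YSL), of which 9 were tested, 8 fell and 0 rose (88.9% lower, against 37.6% of all tested genes), and in all 9 the log2 fold was negative, from −0.52 to −1.45, with a median of −0.88 against −0.45 over all genes tested. YSL1, which in Arabidopsis moves iron chelates in leaves and to seeds, fell the most. Rsa10014364 (R02, 6242749 to 6245182) had 15.43, 12.91 and 14.87 FPKM at 120 days against 38.68, 37.48 and 47 FPKM at 30 days, without overlap (log2 fold −1.45 ± 0.15 SE, limma adjusted p = 0.00243). YSL3 (Rsa10003852), its partner in Arabidopsis leaves, had 20.0, 18.42 and 18.79 FPKM at 120 days against 42.68, 44.98 and 24.06 FPKM at 30 days (log2 fold −0.88 ± 0.25 SE, limma adjusted p = 0.03). YSL6 (Rsa10007530) was the most abundant at 30 days, with 20.21, 23.07 and 23.22 FPKM at 120 days against 30.87, 67.8 and 39.99 FPKM at 30 days (log2 fold −0.95 ± 0.29 SE, limma adjusted p = 0.0356). For these genes too every 120-day library lay below every 30-day library. This held for 8 of the 9 tested YSL genes (88.9%), against 49.1% of all tested genes. YSL7 (Rsa10033887) had 2.69, 2.41 and 2.53 FPKM at 120 days against 5.01, 11.44 and 4.06 FPKM at 30 days (log2 fold −1.03 ± 0.34 SE, limma adjusted p = 0.0469), and −0.64 without 30-day replicate 2. Of the 3 genes described as YSL5, Rsa10014252, a model of short span (R02, 6902479 to 6902700), had a log2 fold of −1.16 ± 0.26, Rsa10042543 one of −0.72 ± 0.23 and Rsa10035022 one of −0.52 ± 0.15 (SE, limma adjusted p = 0.0146, 0.0449 and 0.0314).

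After median centring 1 of the 9 YSL genes stayed called, YSL1 (log2 fold −1.01, limma adjusted p = 0.00779). That is 11.1%, close to the 10.2% of all tested genes called lower after centring. The median of the 9 was then −0.44, against −0.01 over all genes tested and −0.88 as deposited. Without 30-day replicate 3 all 9 were called lower, against 42.8% of all tested genes. The calls of YSL3, YSL6, YSL7 and YSL5 (Rsa10035022) were each lost without 120-day replicate 1, 2 or 3 (limma adjusted p = 0.0739 to 0.125 among these genes), and those of YSL3, YSL7 and YSL5 (Rsa10035022) also without 30-day replicate 1 (0.0933, 0.0746 and 0.0885). YSL3 was also lost without 30-day replicate 2 (0.0618), and YSL5 (Rsa10042543) without any 1 of the libraries other than 30-day replicate 3 (0.0562 to 0.142, within 0.0154 to 0.383 over the alternatives). Over all alternatives the adjusted p was 0.00188 to 0.47 for YSL3, 0.0269 to 0.541 for YSL6, 0.0165 to 0.452 for YSL7 and 0.0139 to 0.999 for YSL5 (Rsa10035022).

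The synthases that make nicotianamine did not pass and varied between libraries of the same age. Nicotianamine synthase 1 (Rsa10036520) had 16.04, 3.02 and 10.72 FPKM at 120 days against 20.13, 0.38 and 33.64 FPKM at 30 days, and synthase 3 (Rsa10037551) had 0.23, 1.75 and 0.61 FPKM at 120 days against 0.6, 6.66 and 5.42 FPKM at 30 days. Both overlapped between the ages (limma adjusted p = 0.948 and 0.14). In the authors' deposited table synthase 3 was significantly lower (log2 fold −2.29, q-value 0.12) and synthase 1 was not significant. Within each age, synthase 1 was lowest in replicate 2.

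**Figure D3:**
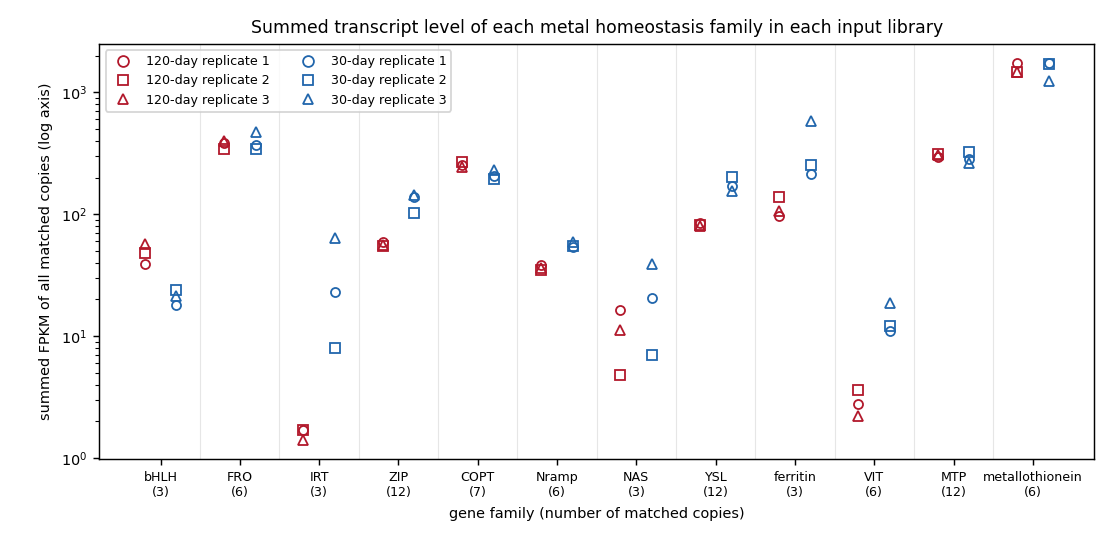
Summed FPKM (log axis) of all matched copies of each of the 12 families in each input library, with 120-day libraries in red on the left and 30-day libraries in blue on the right and symbols for replicates 1 to 3. The YSL, ZIP, Nramp, IRT, ferritin and VIT sums are lower in every 120-day library than in every 30-day library, the bHLH and COPT sums are higher, and the FRO, NAS, MTP and metallothionein sums overlap.

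Ferritin, the protein shell that stores iron in plastids, fell in both expressed copies. Of all tested genes 37.6% were called lower, and 49.1% had every 120-day library below every 30-day library. Ferritin-3-like, Rsa10030897 (R07, 8653646 to 8655083), had 46.56, 74.48 and 51.5 FPKM at 120 days against 133.06, 163.76 and 463.02 FPKM at 30 days (log2 fold −1.92 ± 0.48 SE, limma adjusted p = 0.0206). Ferritin-4, Rsa10002946 (R04, 40353576 to 40355240), had 49.46, 63.26 and 55.23 FPKM at 120 days against 79.68, 88.73 and 118.93 FPKM at 30 days (log2 fold −0.75 ± 0.20 SE, limma adjusted p = 0.024). In both genes the ages did not overlap, and 30-day replicate 3 was the highest library. Without it the log2 folds were −1.37 and −0.59, and both calls were kept. Neither passed after median centring (log2 folds −1.48 and −0.31, limma adjusted p = 0.0736 and 0.318). The call of ferritin-3-like was also lost without 120-day replicate 1 or 3 (0.0681 and 0.0729, and 0.00549 to 0.2 over the alternatives), and that of ferritin-4 without 120-day replicate 1, 2 or 3 (0.0818, 0.0569 and 0.0824, and 0.0205 to 0.615 over the alternatives). Ferritin-2-like (Rsa10011120), below the filter, had 0.37, 0.2 and 0.53 FPKM at 120 days and was listed at 0 in all 30-day libraries.

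The vacuolar iron transporter homologs, relatives of the carrier that loads iron into the vacuole, fell in both tested copies. Of all tested genes 37.6% were called lower, and 49.1% had every 120-day library below every 30-day library. Homolog 2-like (Rsa10030726, R02, 38771813 to 38772710) had 2.42, 2.94 and 1.99 FPKM at 120 days against 8.45, 9.76 and 8.8 FPKM at 30 days (log2 fold −1.54 ± 0.16 SE, limma adjusted p = 0.00243). Homolog 1 (Rsa10029291) had 0.19, 0.26 and 0.03 FPKM at 120 days against 2.06, 1.74 and 5.94 FPKM at 30 days (log2 fold −1.75 ± 0.37 SE, limma adjusted p = 0.0123). Neither overlapped between the ages. The call of homolog 1 was lost without 120-day replicate 3 (limma adjusted p = 0.0514, and 0.00399 to 0.139 over the alternatives). Homolog 1 passed the filter through its 30-day libraries alone, so its low 120-day level is no support for the call.

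Metal tolerance proteins, carriers that move zinc or manganese out of the cytosol, split 1 higher to 5 lower among 11 tested. These are 9.09% higher and 45.5% lower, near the 8.40% and 37.6% of all tested genes. After median centring 3 were higher and 0 lower (27.3% and 0%, against 13.8% and 10.2% of all tested genes). Protein 9 (Rsa10014912, R09, 34108277 to 34110287), of the group that carries manganese, rose, with 19.92, 22.04 and 29.64 FPKM at 120 days against 13.35, 9.01 and 12.52 FPKM at 30 days. The ages did not overlap (log2 fold 0.98 ± 0.21 SE, limma adjusted p = 0.0138), and leaving out 120-day replicate 3 ended the call (0.0523, and 0.00753 to 0.0523 over the alternatives). Protein C2 (Rsa10011227), with 3.82, 3.71 and 3.27 FPKM at 120 days against 6.18, 6.58 and 5.87 FPKM at 30 days, had a log2 fold of −0.65 ± 0.14. Protein C1 (Rsa10007104) had one of −0.73 ± 0.16 and protein 1 isoform X1 (Rsa10009862) one of −0.84 ± 0.19 (SE, limma adjusted p = 0.012, 0.0149 and 0.0151). Each of these falls was lost without 120-day replicate 2 or 3 (0.0523 and 0.0584 for C2, 0.0658 and 0.0648 for C1, 0.0561 and 0.0645 for protein 1 isoform X1), and none passed after median centring. Over the alternatives the adjusted p was 0.0101 to 0.504 for C2, 0.0116 to 0.444 for C1 and 0.0113 to 0.34 for protein 1 isoform X1. The most abundant members were among those that did not pass: protein 11-like (Rsa10017576) had 113 ± 7.07 FPKM at 120 days against 88.7 ± 11.4 FPKM at 30 days and protein 1 (Rsa10006340) 83.6 ± 10.9 FPKM at 120 days against 82.2 ± 30.8 FPKM at 30 days (SD, n = 3 each; limma adjusted p = 0.111 and 0.823). After median centring protein 11-like was called higher (log2 fold 0.79, limma adjusted p = 0.0288).

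Metallothioneins, small cysteine-rich proteins that bind copper and zinc, had the highest summed FPKM of the 12 families in every library, with 1460 to 1750 FPKM summed over the 6 copies at 120 days and 1240 to 1760 FPKM at 30 days. The most abundant copy, MT2-4/MT2-25 (Rsa10008752, R02, 14550245 to 14551007), had 972.6, 985.73 and 943.06 FPKM at 120 days against 814.34, 687.24 and 770.76 FPKM at 30 days. Every 120-day library lay above the 30-day ones, but the log2 fold of 0.36 ± 0.21 did not pass (SE, limma adjusted p = 0.208), and its sign turned to −0.35 after quantile normalization. After median centring it was called higher (log2 fold 0.79, limma adjusted p = 0.0458, within 0.0226 to 0.458 over the alternatives). Metallothionein type 3 (Rsa10042633) was called lower, with 116.8, 76.25 and 72.37 FPKM at 120 days against 260.15, 271.02 and 110.38 FPKM at 30 days. Its ages overlapped through 120-day replicate 1 and 30-day replicate 3 (log2 fold −1.19 ± 0.40 SE, limma adjusted p = 0.0482). Leaving out any 1 library other than 30-day replicate 3 ended the call (0.0633 to 0.145, and 0.00366 to 0.411 over the alternatives). Copies in a family may share reads, and the sources do not say how such reads, or the strand of reads, were handled, which leaves the values of single copies uncertain.

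Of the 24 genes below the filter, 17 stayed under 1 FPKM in every library. The other 7 reached it in 1 or 2 libraries. Metallothionein 4B (Rsa10011758) had 0, 0.64 and 0.48 FPKM at 120 days against 16.68, 0.1 and 19.2 FPKM at 30 days, and YSL1-like (Rsa10036614) had 0.85, 0.41 and 0.25 FPKM at 120 days against 8.33, 0.3 and 4.44 FPKM at 30 days. In both, 30-day replicate 2 was as low as the 120-day libraries. YSL2 (Rsa10018288), vacuolar iron transporter homolog 2 (Rsa10034065), Nramp6 (Rsa10038044), zinc transporter 9 (Rsa10002440) and zinc transporter 10 (Rsa10015875) ranged up to 1.9, 3.57, 1.27, 1 and 1.95 FPKM. Over the 55 tested genes the median coefficient of variation between libraries was 12.1% at 120 days and 29.4% at 30 days, against 12.2% and 24.5% over all genes tested.

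The authors listed differential m6A peaks in 10 of the 79 genes (12.7%), against 17.2% of all genes in the expression table. All 10 were tested genes, 18.2% of the tested metal genes, against 23.3% of all tested genes. The 10 genes held 11 peaks, and all 11 were higher at 120 days, the direction of 96.8% of all the authors' differential peaks. The authors' log2 folds of the 11 peaks ran from 0.31 to 1.16 with a median of 0.48, against 0.50 over all peaks. No peak was listed in bHLH101, FRO 4, copper transporter 1-like, YSL1, any ferritin or either Fe(2+) transport protein 3 copy. These genes were picked by their expression, and most tested genes had no listed peak, so this is not a result about them. Levels were also near the floor at 1 age for bHLH101 (at most 0.26 FPKM at 30 days) and Rsa10022351 (at most 0.56 FPKM at 120 days).

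The highest of these peaks was in metal tolerance protein C4-like (Rsa10031645), at R06, 2156855 to 2157417, with an authors' log2 fold of 1.16 and FDR of 1.58e-14. Its transcript had 4.42, 4.81 and 5.16 FPKM at 120 days against 7.03, 7.17 and 5.72 FPKM at 30 days (log2 fold −0.39, limma adjusted p = 0.0683). FRO 1 (Rsa10030135) was the one gene with 2 peaks: one at R05, 19343248 to 19343398, 2568 bases before the 3′ end of the gene (log2 fold 0.91, FDR 1.62e-06), and one at 19345573 to 19345966, at its 3′ end (log2 fold 0.46, FDR 2.51e-12). Metal tolerance protein 9 (Rsa10014912) had a peak at R09, 34108306 to 34108395, 29 bases from its 3′ end (log2 fold 0.92, FDR 0.00447), and was the one gene of the 10 whose transcript also rose. Nramp2 (Rsa10008217) had a peak at R08, 5132625 to 5132923, in the 3′ UTR by the authors' annotation (log2 fold 0.69, FDR 3.24e-09), and its transcript fell by at least 2-fold.

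The other 6 peaks were in genes with lower or uncalled expression. Zinc transporter ZTP29 (Rsa10014404), with 8.54, 10.01 and 9.25 FPKM at 120 days against 12.24, 12.6 and 20.45 FPKM at 30 days, had a peak log2 fold of 0.67, and YSL5 (Rsa10035022) and metal tolerance protein 1 isoform X1 (Rsa10009862) had 0.48 and 0.46. Those of bHLH47 (Rsa10028473), metal tolerance protein C1 (Rsa10007104) and zinc transporter 5 (Rsa10035174) were 0.40, 0.38 and 0.31, with the FDR of bHLH47 at 0.0617, above 0.05. Of the 11 peaks, 9 reached the 3′ end of the gene model (81.8%, against 70.1% of all peaks), and 2 were annotated as 3′ UTR and 9 as exonic by the authors (34.5% and 63.0% of all peaks). Of the 10 genes, 5 were called lower, 1 higher and 4 did not pass, against 56.1% lower and 4.32% higher among all tested genes with a peak. After median centring 1 of the 10 was lower (Nramp2) and 1 higher (metal tolerance protein 9). Of all tested genes, with or without a peak, 10.2% were then lower and 13.8% higher. Leaving out 1 library moved the count of lower genes among the 10, to 3, 1 and 1 without 120-day replicates 1, 2 and 3 and to 8 without 30-day replicate 3, and without 120-day replicate 3 no gene of the 10 was called higher. The sources do not say whether the input libraries entered the authors' peak fold, so peak and transcript folds are set side by side and not combined.

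**Figure D4:**
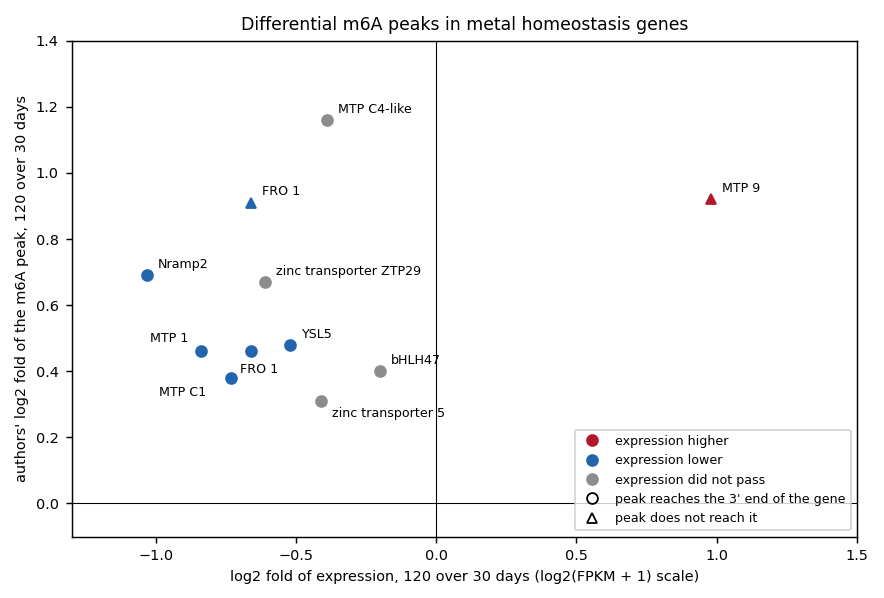
The authors' log2 fold of each of the 11 differential m6A peaks (y axis) against the log2 fold of the gene's expression (x axis), both 120 over 30 days, for 10 metal homeostasis genes; triangles mark the 2 peaks that do not reach the 3′ end of the gene. All peaks lie between 0.31 and 1.16, and metal tolerance protein 9 is the one gene to the right of 0 in expression.

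Genes of the same biology outside the 79 were counted in 5 further lists, to be read against the 8.40% of all tested genes called higher and the 37.6% called lower. Of 12 tested genes of other iron regulators and iron transport, 3 rose (25.0%) and 4 fell (33.3%). Oligopeptide transporter 3 (Rsa10016002), which loads iron into the phloem in Arabidopsis, rose, with 124.2, 91.16 and 97.23 FPKM at 120 days against 51.52, 44.87 and 39.32 FPKM at 30 days (log2 fold 1.18 ± 0.18 SE, limma adjusted p = 0.00547). ILR3-like (Rsa10019497), a bHLH factor of the iron response, fell, with 48.76, 43.35 and 49.04 FPKM at 120 days against 84.21, 76.11 and 90.06 FPKM at 30 days (log2 fold −0.81 ± 0.14 SE, limma adjusted p = 0.00694; −0.38 after median centring, adjusted p = 0.0989). The FIT-like gene Rsa10013423, chosen after its values were seen because FIT is the partner of bHLH101 in Arabidopsis, was low, with 0.15, 0.14 and 0.48 FPKM at 120 days against 1.32, 1.74 and 4.07 FPKM at 30 days (log2 fold −1.35 ± 0.32 SE, limma adjusted p = 0.0174). Its call was lost after median centring (adjusted p = 0.0957) and without 120-day replicate 1 or 2 (0.0586 and 0.065, within 0.0115 to 0.0957 over the alternatives). The factor bHLH34-like (Rsa10028095), of another subgroup of iron-response bHLH factors, rose to 3.43 ± 0.926 FPKM at 120 days, against 1.37 ± 0.535 FPKM at 30 days (SD, n = 3 each; limma adjusted p = 0.0249). Leaving out 120-day replicate 1 or 3 or 30-day replicate 1 ended that call (0.0812, 0.0815 and 0.07, within 0.011 to 0.0815 over the alternatives). Mitoferrin-like (Rsa10016510), of the carriers that bring iron into mitochondria, fell to 5.03 ± 0.281 FPKM at 120 days, against 10.3 ± 1.88 FPKM at 30 days (limma adjusted p = 0.00915; after median centring 0.0998, within 0.00281 to 0.0998 over the alternatives).

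Of 24 tested copper genes, 3 rose (12.5%, against 8.40% of all tested genes) and 4 fell (16.7%, against 37.6%). The 2 expressed copies of the copper chaperone for superoxide dismutase, which delivers copper to that enzyme, went opposite ways. Rsa10033299 had 455.76, 450.05 and 500.41 FPKM at 120 days against 25.07, 5.26 and 168.48 FPKM at 30 days (log2 fold 3.96 ± 1.10 SE, limma adjusted p = 0.0277). Rsa10041075, named after its values were seen, had 22.38, 24.67 and 17.21 FPKM at 120 days against 186.75, 340.33 and 35.26 FPKM at 30 days (log2 fold −2.58 ± 0.78 SE, limma adjusted p = 0.0365). Neither overlapped between the ages, and in both 30-day replicate 3 was the 30-day library nearest to the 120-day values. Each call was lost when 120-day replicate 1, 2 or 3 or 30-day replicate 1 was left out (0.0739 to 0.0844 for the first copy and 0.0883 to 0.11 for the second, and over the alternatives 0.00205 to 0.0844 and 0.00121 to 0.11). The second was also lost without 30-day replicate 2 (0.0655) and after median centring (0.0962). The chloroplast copper pump PAA2-like (Rsa10021104) rose to 51.6 ± 0.864 FPKM at 120 days, against 17.9 ± 8.02 FPKM at 30 days (SD, n = 3 each; limma adjusted p = 0.0143; lost without 120-day replicate 2 or 3, 0.0538 and 0.0535, within 0.00181 to 0.0538 over the alternatives). The copper pump RAN1 (Rsa10013930) fell to 27.4 ± 3.62 FPKM at 120 days, against 58.7 ± 9.2 FPKM at 30 days (limma adjusted p = 0.00653), and the cytochrome c oxidase copper chaperone 2 (Rsa10001495), which serves the respiratory chain, to 5.26 ± 1.6 FPKM at 120 days, against 17.4 ± 2.19 FPKM at 30 days (limma adjusted p = 0.00389).

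Of 23 tested genes of iron-containing plastid proteins and their partners, 9 rose (39.1%, against 8.40% of all tested genes) and 3 fell (13.0%, against 37.6%). Ferredoxin-NADP reductase leaf isozyme 2 (Rsa10040783), which passes electrons from ferredoxin to NADP, had 680 ± 103 FPKM at 120 days against 197 ± 44.5 FPKM at 30 days, while the root-type ferredoxin R-B2 (Rsa10020197) had 8.06 ± 1.06 FPKM at 120 days against 31.5 ± 9.05 FPKM at 30 days (SD, n = 3 each; limma adjusted p = 0.00398 and 0.00382). Leaf isozyme 1 (Rsa10022130) rose, with 1011.37, 1151.12 and 1215.55 FPKM at 120 days against 428.52, 474.02 and 439.65 FPKM at 30 days, and root ferredoxin R-B1 (Rsa10028677) fell to 9.19 ± 3.12 FPKM at 120 days, against 34.3 ± 15.5 FPKM at 30 days (limma adjusted p = 0.0056 and 0.0135). After quantile normalization the log2 fold of leaf isozyme 1 was 0.65, against 1.33 as deposited, and its call was lost (limma adjusted p = 0.0706, within 0.00257 to 0.0706 over the alternatives). The call of R-B1 was lost without 120-day replicate 2 or 3 (0.0543 and 0.0541, within 0.00724 to 0.0543 over the alternatives). Of 21 tested iron-sulfur cluster assembly genes 1 rose (4.76%, against 8.40% of all tested genes) and 10 fell (47.6%, against 37.6%), the deepest named fall being in sufE-like protein 2 (Rsa10034026), with 2.91, 4.37 and 3.22 FPKM at 120 days against 17.71, 13.51 and 40.76 FPKM at 30 days (log2 fold −2.33 ± 0.40 SE, limma adjusted p = 0.00678). The mitochondrial assembly protein IscA-like 1 (Rsa10041775) fell to 7.78 ± 1.52 FPKM at 120 days, against 17.9 ± 1.31 FPKM at 30 days (limma adjusted p = 0.00489). The 1 gene that rose, the chloroplast assembly factor HCF101 (Rsa10036860), had 54.2 ± 4.21 FPKM at 120 days against 40.6 ± 2.29 FPKM at 30 days (limma adjusted p = 0.0448), and its call was lost on leaving out any 1 of the libraries other than 30-day replicate 3 (0.0727 to 0.159, within 0.0114 to 0.159 over the alternatives). Of 35 tested metal-binding isoprenylated proteins, metal pumps and chelation genes 6 rose (17.1%, against 8.40% of all tested genes) and 12 fell (34.3%, against 37.6%), among them PLANT CADMIUM RESISTANCE 10 (Rsa10037714, log2 fold 1.52) and the cadmium and zinc pump HMA3-like (Rsa10031325, log2 fold −1.18; limma adjusted p = 0.00581 and 0.00465). Heavy metal-associated isoprenylated plant proteins, which carry a metal-binding domain, were in both directions, with 3-like (Rsa10022287) at a log2 fold of 1.44 and 21-like (Rsa10015118) at −1.67 (limma adjusted p = 0.00694 and 0.00747). Other copies of these names, picked after their values were seen, also went both ways. Among 3-like copies, Rsa10027400 had −0.88 and Rsa10008802 0.79, and 21-like Rsa10031023 had 1.19 (limma adjusted p = 0.0101, 0.0337 and 0.0271). Another PLANT CADMIUM RESISTANCE 10 gene, Rsa10006727, had −0.9 (limma adjusted p = 0.0166). The falls of Rsa10027400 and Rsa10006727 did not pass after median centring (0.0886 and 0.187). After median centring, which called 13.8% of all tested genes higher and 10.2% lower, the 5 lists had in the order given 3, 5, 15, 2 and 7 genes higher (25.0%, 20.8%, 65.2%, 9.52% and 20.0%) and 0, 2, 2, 3 and 4 lower (0%, 8.33%, 8.70%, 14.3% and 11.4%). In both scalings the plastid list had more genes higher than lower.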

How the data were processed

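Leaf blades were profiled in 6 input libraries, and 6 immunoprecipitated libraries entered through the authors' peak comparison. Groups came from titles. Tools named in the submitters' processing notes are fastp, FastQC, HISAT2, StringTie, HOMER and edgeR. Their versions and roles, the genome build and the peak caller are not given in the sources used here. The authors deposited FPKM with 2 decimals, and a fold, log2 fold, p-value and q-value per gene, per the file headers. For each peak they deposited a log2 fold, p-value and FDR, per the file headers. The reads behind an FPKM are unknown, so no counting interval is given. Peak starts were counted from 0 in the file and are printed 1-based.

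The limma 3.58.1 fit (R 4.3.3, eBayes with trend, 2-sided) ran on the whole table, and was tested on simulated data. An exact test of 3 against 3 libraries cannot go below p = 0.1, so none was used. Alternatives were another offset, filter, scaling and variance model, a replicate block and leaving out libraries. The members and lists were chosen with earlier results of these data known. Named were all bHLH and ferritin genes, up to 4 per other role with the smallest p, those called with a 2-fold change or a peak, the most abundant of each role, those below the filter reaching 1 FPKM, and 2 per related list and direction; some others are named beside them.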

Additional observations from a re-analysis of the deposited data

How the results depend on the processing

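Of 29 named metal genes that were called, 5 kept their call under all 19 alternatives (bHLH101, FRO 4, copper transporter 1-like Rsa10022656, YSL1 and vacuolar iron transporter homolog 2-like), and 10 under the 13 that change 1 choice. The 4 metal genes called higher became 7 after median centring, and the 30 called lower became 9 after median centring and 9 after quantile normalization; the cause was not tested. Leaving out 1 library gave 3 to 5 higher and 9 to 34 lower, and with median centring 4 to 10 higher and 2 to 14 lower (10 and 14 without 30-day replicate 3, 11 lower without 30-day replicate 2). In the related lists, 33 lower became 11 after median centring and 16 after quantile normalization, and leaving out 1 library gave 7 to 28 higher and 14 to 41 lower. Among all tested genes, 37.6% were lower as deposited, 10.2% after median centring, 13.1% after quantile normalization and 42.8% without 30-day replicate 3. The shares higher were 8.40%, 13.8%, 12.4% and 10.2% in the same order. For the other left-out libraries no share is given, so those counts have no background beside them. One metal gene with a peak, of 10, had a peak log2 fold of at least 1.

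Signs that turned were of genes that did not pass, except YSL5. After median centring and after quantile normalization, bHLH47 had log2 folds of 0.24 and 0.22, zinc transporter 5 (Rsa10035174) 0.02 and 0.02, and metal tolerance protein C4-like 0.04 and 0.02. After quantile normalization, FRO 7 had −0.13 and MT2-4/MT2-25 −0.35. With median centring and 1 library left out, bHLH47 had 0.10, 0.15, 0.26, 0.27, 0.30 and 0.36, zinc transporter 5, where its sign turned, 0.06, 0.07, 0.08 and 0.08, metal tolerance protein C4-like 0.04, 0.04, 0.12 and 0.13, and, without 30-day replicate 3, YSL5 (Rsa10035022) had 0.00 and ZTP29 0.05. FRO 7 ranged between −0.03 and 0.27 with 1 library left out, and with median centring as well between 0.44 and 0.71, called higher without 30-day replicate 3 (0.71, limma adjusted p = 0.0223).

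With the replicate number as a block, 4 metal genes were higher and 23 lower, and 20 and 28 in the related lists. The share of all tested genes called with the block is not given here, so these counts have no background beside them. Among genes named, FRO 8, YSL7, YSL5 (Rsa10035022), zinc transporter 4, copper transporter 1-like (Rsa10001393) and HCF101 were not called with the block (limma adjusted p = 0.0825, 0.0576, 0.0589, 0.0577, 0.0576 and 0.0773). The titles do not say that a replicate number marks a shared plant, tray or day, so the numbers were not taken to pair the libraries. Deviations of same-numbered libraries correlated at 0.272, 0.142 and 0.0814, and those of other pairs at −0.195 to 0.0311. Each library thus correlated best with its own number, and what the numbers mark was not tested.

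The reads behind an FPKM are unknown, so depth limits could not be set, and levels under 1 FPKM were described, not tested. With 3 libraries an age, groups are too small for a check for outlying samples.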
